A study of Mus musculus with 12 samples.

Results

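The miR-183/96/182 cluster encodes 3 guide-strand microRNAs (miRNAs), mmu-miR-182-5p, mmu-miR-183-5p and mmu-miR-96-5p, written here without the species prefix, which were followed in small RNA libraries of gastrocnemius, the large calf muscle, of male C57BL/6 mice. The members were taken by name, and all 3 were among the 1900 mature miRNAs of the table. Young mice were 6 months old and aged mice 24 months old, with 6 libraries in each group, 1 per animal, and no other treatment or genotype. The deposited level is FPKM on a log2 scale, a read number divided by miRNA length and by library depth.

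The cluster is transcribed as one long precursor, from which the hairpins are cut separately. It is best known from sensory cells, such as photoreceptors and hair cells. In skeletal muscle miR-182 has been described as a repressor of Foxo3, a FoxO transcription factor that switches on the ubiquitin ligase genes of muscle wasting, and miR-96 and miR-182 have been described as repressors of Foxo1.

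The mature sequences, from RefSeq on GRCm38 (mm10), are given 5′ to 3′ with the seed, bases 2 to 8, in capitals, because the seed sets which messages a miRNA can pair with:
miR-182-5p: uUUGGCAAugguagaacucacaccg
miR-96-5p: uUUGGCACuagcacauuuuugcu
miR-183-5p: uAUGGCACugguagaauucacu
The seeds of miR-182-5p and miR-96-5p shared bases 2 to 7, UUGGCA, and differed at base 8. No other RefSeq mouse miRNA had the seed of miR-182-5p or of miR-183-5p, and that of miR-96-5p was shared with miR-1271-5p, which was not analysed here. Read from the 5′ end without gaps, miR-182-5p and miR-183-5p were identical at 18 of 22 positions, with the substitutions U2A, A8C, C17U and A22U from miR-182-5p to miR-183-5p. miR-96-5p matched miR-182-5p at 12 of 23 positions and miR-183-5p at 13 of 22.

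All 3 hairpins lay on the minus strand of chromosome 6 (mm10), within 3820 bases. Mir183 was at chr6:30169668-30169737, Mir96 at chr6:30169446-30169551 and Mir182 at chr6:30165918-30165992. Mir183 and Mir96 were 116 bases apart, and Mir182 followed 3453 bases further along the transcript. GENCODE M21 placed no other gene over the cluster. The nearest genes were Nrf1, which ended 12459 bases away, and the long noncoding RNA Rncr4, which began 3155 bases beyond Mir183, both read from the opposite strand.

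The 3′UTRs of the FoxO genes were searched for the 7-base complement of each seed, on the transcript strand and in the longest annotated 3′UTR. The Foxo3 3′UTR of 4490 bases held 2 matches to miR-182-5p (TTGCCAA), both followed by an A, and 0 to miR-183-5p (GTGCCAT) or miR-96-5p (GTGCCAA). That of Foxo1, of 6240 bases, held 1 match to each of the 3. Foxo4 had 1 match, to miR-96-5p, and Foxo6 had 0 to any of them. Such matches are common in long 3′UTRs. At 0.8 to 1.25 times the length of the Foxo3 3′UTR, 31.2% of 1318 mouse 3′UTRs held at least 1 miR-182-5p motif, whatever base followed. At the length of Foxo1 38.1% of 627 did, while 32.2% held that of miR-183-5p and 28.5% that of miR-96-5p. At the length of Foxo4 8.52% of 3109 held the miR-96-5p motif. The share with 2 matches, or with a match followed by an A, was not counted. The miR-182-5p matches are shown with the motif in capitals and 10 bases on either side, because they are the letters through which this miRNA could pair with FoxO messages:
Foxo3, chr10:42186242-42186268, minus strand: agaaaaccctTTGCCAAatctgctctc
Foxo3, chr10:42185423-42185449, minus strand: cctctgcccgTTGCCAAatgccacgaa
Foxo1, chr3:52350872-52350898, plus strand: gtgtttgctcTTGCCAAaagctgccgg
A match is a description of the sequence, and FoxO messages were not measured in these libraries.

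Depth set what could be read from so small a signal. The table gave no reads, but its low values were spaced by what 1 read is worth, which allowed the mapped reads of each library to be estimated. They ran from 212196 to 609777 in young replicates 1 to 5 and were 6526695 in young replicate 6. In aged muscle they were 120437 in replicate 5, between 1228036 and 1665959 in replicates 1, 2, 4 and 6, and 7761592 in replicate 3. Young replicate 6 and aged replicate 3 therefore stood apart by depth, and the age difference, the spread and the relation between members are also given without them. The design text of the series names another sequencer and fewer samples than the methods and the sample list, and no label says whether these libraries were sequenced apart from the others. Of the 30 member values above 0, 27 lay within 0.15 of a whole read, and the other 3 were miR-182-5p values of 43, 112 and 161 reads, up to 0.39 of a read away. The summed FPKM of 7 listed muscle miRNAs was at least 6.78e+06 in every library, and that of 7 listed blood cell miRNAs at most 35411. The most abundant muscle miRNA was miR-133a-3p, with 1040393 reads in young and 1433697 in aged muscle. Others were scarce, such as miR-499-5p with 14 and 37 reads and miR-208b-3p with 20 and 147. All 7 listed muscle miRNAs were read in both ages, but so were all 7 listed blood cell miRNAs. A read alone therefore does not tell tissues apart.

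miR-182-5p was the most abundant member and was read in all 12 libraries. Its reads in young replicates 1 to 6 were 36, 19, 29, 13, 26 and 43, and in aged replicates 1 to 6 they were 124, 33, 124, 112, 14 and 161. The level in young muscle ran from 261 FPKM through a median of 2361 to 3875. In aged muscle it ran from 639 FPKM through a median of 3309 to 4871. The groups overlapped almost entirely, and the lowest library of each age was its deepest one, young replicate 6 and aged replicate 3. By mean FPKM miR-182-5p ranked 128 of all miRNAs and held at most 0.0115% of the summed FPKM of a library.

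miR-183-5p, from the first hairpin of the transcript, was also read in all 12 libraries. Its reads were 20, 6, 16, 11, 6 and 29 in young replicates 1 to 6 and 51, 14, 28, 52, 7 and 90 in aged replicates 1 to 6. The level in young muscle was lowest at 202 FPKM, had a median of 1055 and was highest at 2436. In aged muscle the lowest was 164 FPKM, the median 1657 and the highest 3083. Again the groups overlapped, and young replicate 6 and aged replicate 3 were the lowest of their ages.

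miR-96-5p, which shares 6 seed bases with miR-182-5p, was close to undetected. It had 1 read in each of young replicates 1, 3, 4 and 6 and of aged replicates 3 and 4, and 0 in the other 6 libraries. Pooled over ages this is 6 reads in 22020499 mapped reads, or 0.272 RPM, reads scaled to library depth alone (95% exact Poisson interval 0.10 to 0.593), against 33.3 (31.0 to 35.8) for miR-182-5p and 15.0 (13.4 to 16.7) for miR-183-5p. These intervals cover counting error only. The pooled values are weighted by depth toward young replicate 6 and aged replicate 3, the lowest of their ages for miR-182-5p and miR-183-5p. The medians over the 12 libraries were higher, at 60.4 RPM for miR-182-5p and 31.7 for miR-183-5p. The FPKM of 1 read depends on depth, so 1 read of miR-96-5p gave 205 FPKM in young replicate 4 and 5.58 in aged replicate 3. No fold change is given for it, since no library had more than 3 reads.

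The passenger strands of the hairpins were nearly absent:
miR-183-3p: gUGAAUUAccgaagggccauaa
miR-182-3p: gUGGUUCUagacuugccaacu
miR-96-3p: cAAUCAUGuguagugccaauau
These strands are shown to set them against the guides. miR-183-3p had 2 reads, both in young replicate 6, which had 29 reads of miR-183-5p. miR-182-3p had 0 reads in 22020499, where miR-182-5p had 734, and miR-96-3p had 0 as well, which allows up to 0.168 RPM for each (upper end of the 95% exact Poisson interval).

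**Figure D1:**
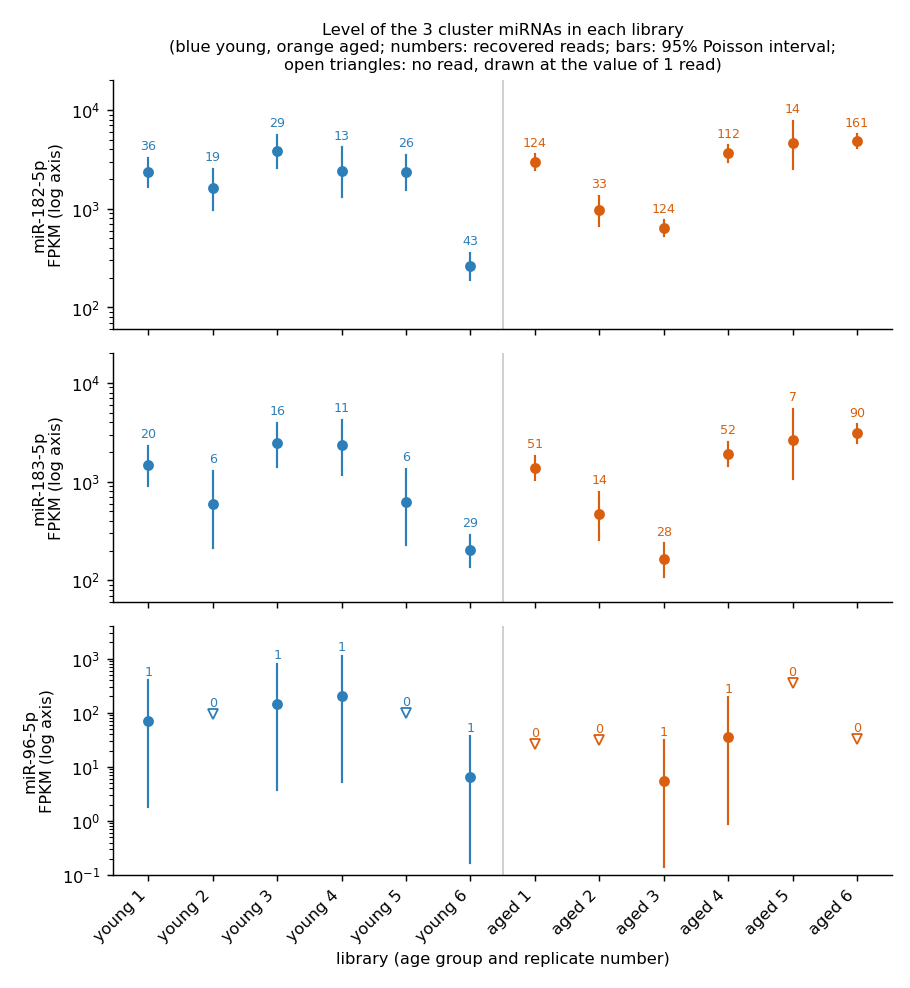
Level in FPKM (log axis) of miR-182-5p, miR-183-5p and miR-96-5p in each library, young in blue and aged in orange, with 95% Poisson intervals of the reads as bars and the read numbers above. For the first 2 the lowest points of each age are young 6 and aged 3, and miR-96-5p never exceeds 1 read.

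The order of the levels was the same in every library. On log2(FPKM + 48.2), where 48.2 FPKM is the pseudocount, miR-182-5p was above miR-183-5p in 12 of 12 libraries by a mean of 0.92 ± 0.53 (SD, n = 12; exact sign-flip permutation test over libraries, two-sided, adjusted p = 0.000488). It was above miR-96-5p by 4.83 ± 1.31 and miR-183-5p was above miR-96-5p by 3.92 ± 1.24 (SD, n = 12), each in 12 of 12 libraries and with the same adjusted p by the exact permutation test, the smallest that 12 libraries allow. The size of the differences from miR-96-5p is set by the pseudocount: with 1 FPKM they were 8.29 and 7.32, and with 10 times the main pseudocount 2.34 and 1.67. Of the 1070 reads of the 3 members, miR-182-5p took 68.6% (exact binomial 95% interval 65.7 to 71.4), miR-183-5p 30.8% and miR-96-5p 0.561%. The gap between miR-182-5p and miR-183-5p was smallest in young replicate 4, where the log2 difference was 0.049 and rested on 13 and 11 reads.

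The main question was whether the cluster changed between 6 and 24 months. limma was fitted to the 482 miRNAs with a read in at least 5 libraries. Of the 3 members 0 passed an adjusted p of 0.05, where 2.90% of all tested miRNAs did, 0.622% as higher and 2.28% as lower in aged muscle. On the log2(FPKM + 48.2) scale miR-182-5p was at 10.8 ± 1.29 in young and 11.2 ± 1.21 in aged muscle (SD, n = 6), a difference of 0.43 (SE 0.50, limma adjusted p = 0.760). Its 95% confidence interval, from -0.59 to 1.46, covers lower as well as higher levels in aged muscle. miR-183-5p was at 9.96 ± 1.30 in young and 10.2 ± 1.52 in aged muscle (SD, n = 6), a difference of 0.24 (SE 0.58, limma adjusted p = 0.911) with an interval from -0.96 to 1.43. For miR-96-5p the limma adjusted p was 0.407, on single reads in 4 young and 2 aged libraries. At an unadjusted p of 0.05, which 12.9% of tested miRNAs passed, 0 of the 3 members passed either. In bulk tissue, fewer cells of a type and less RNA per cell cannot be told apart.

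The size of the difference moved with single libraries. Without young replicate 6 the difference of miR-182-5p was -0.067 (limma adjusted p = 0.982), and without aged replicate 3 it was 0.79 (limma adjusted p = 0.513). For miR-183-5p the corresponding values were -0.16 and 0.73 (limma adjusted p = 0.951 and 0.590). Without aged replicate 5 or 6 the difference of miR-182-5p was 0.24 and 0.22, and that of miR-183-5p was -0.0044 and -0.048. With both of the deepest libraries left out, a choice made after seeing the data, miR-182-5p differed by 0.29 (SE 0.33, interval -0.38 to 0.97, limma adjusted p = 0.811) and miR-183-5p by 0.33 (SE 0.44, interval -0.58 to 1.24, limma adjusted p = 0.863). Depth also differed between the ages, and with log2 depth as a covariate miR-182-5p was higher in aged muscle by 0.99 (SE 0.35, unadjusted p = 0.00959, limma adjusted p = 0.167) and miR-183-5p by 0.83 (SE 0.44, limma adjusted p = 0.441).

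miR-182-5p and miR-183-5p varied between libraries of one age, and less so once the deepest library of each age was left out. The SD within age groups was 1.25 log2 units for miR-182-5p and 1.42 for miR-183-5p, and the median was 0.41 over the 54 tested miRNAs within 1 log2 unit of the level of miR-182-5p and 0.50 over the 75 within 1 unit of miR-183-5p. In these sets miR-182-5p ranked 2 and miR-183-5p ranked 1. In the 10 libraries without young replicate 6 and aged replicate 3 the SDs were 0.73 and 1.00, beside medians of 0.45 and 0.54, and both miRNAs ranked 7. The SD of miR-96-5p was 0.79 over the 12 libraries, rank 173 of 482, but it rests on 0 or 1 read per library and describes no spread of level.

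**Figure D2:**
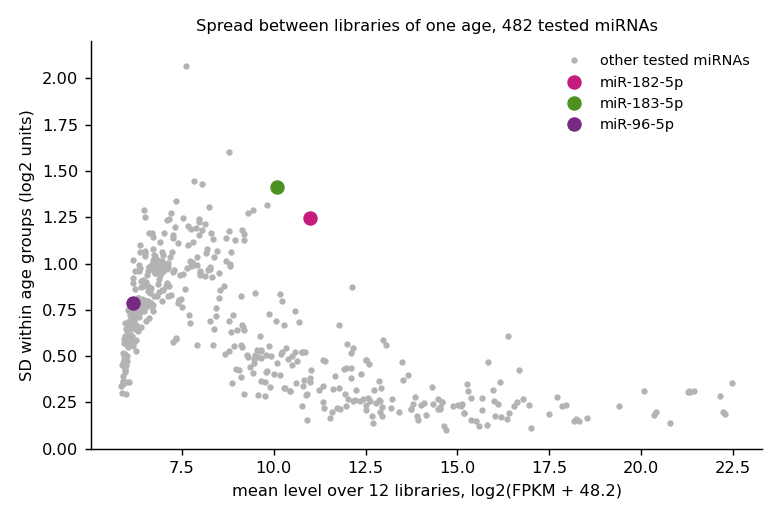
SD within age groups (log2 units) of each of the 482 tested miRNAs against its mean level over 12 libraries on log2(FPKM + 48.2). miR-183-5p at 1.42 and miR-182-5p at 1.25 rank 1 of 75 and 2 of 54 among miRNAs within 1 log2 unit of their level. miR-96-5p, with at most 1 read per library, lies at 0.79.

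Counting intervals give the precision of single libraries. miR-182-5p had 6.59 RPM in young replicate 6 (95% exact Poisson interval 4.77 to 8.87), and the lowest of the other young libraries, replicate 2, had 40.8 (24.6 to 63.8). In aged replicate 3 it had 16.0 (13.3 to 19.0), while aged replicates 1, 4, 5 and 6 had between 74.4 and 121. The interval of young replicate 6 did not meet that of any other young library, nor that of aged replicate 3 those of aged replicates 1, 4, 5 and 6. For miR-183-5p the interval of young replicate 6 overlapped those of young replicates 2 and 5, which had 6 reads each. In aged replicates 1, 2, 4 and 6, of 1228036 to 1665959 mapped reads, miR-182-5p was at 962 FPKM in replicate 2 and between 2978 and 4871 in the others. miR-183-5p showed the same order there, at 465 FPKM in replicate 2 and from 1389 to 3083 in the others.

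Relative to the mean of the other 5 libraries of the same age, the log2 difference in young replicate 6 was -3.0 for miR-182-5p and -2.39 for miR-183-5p. In aged replicate 3 it was -2.15 and -2.96. Of the 207 tested miRNAs with a mean level of at least 482 FPKM on the log scale these were the 2 lowest values in both libraries. Averaged over both libraries against the other 10, the differences were -2.67 for miR-183-5p and -2.58 for miR-182-5p. The next lowest, miR-501-3p, named here after its value was seen, was at -0.83. The part of depth in this was not tested.

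**Figure D3:**
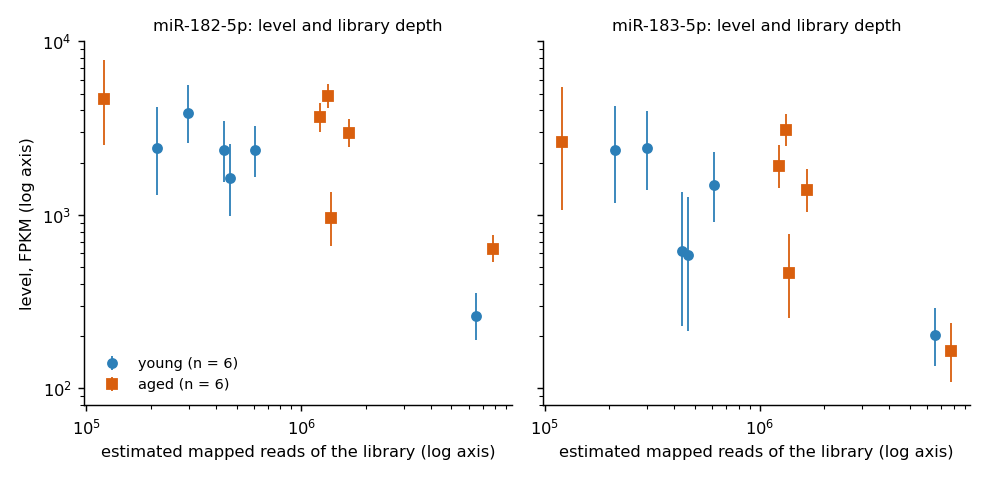
Level in FPKM of miR-182-5p (left) and miR-183-5p (right) against the estimated mapped reads of each library, both on log axes, with 95% Poisson intervals, young as circles and aged as squares (n = 6 each). The deepest library of each age, at 6526695 and 7761592 mapped reads, holds the lowest value of its age, while the aged libraries of 1228036 to 1665959 reads spread from 962 to 4871 FPKM for miR-182-5p.

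Markers of other tissues were followed in the same libraries. The summed FPKM of 7 neuronal miRNAs spanned 5103 to 13283 in young libraries and 6225 to 10609 in aged ones, and was 7327 in young replicate 6 and 8715 in aged replicate 3. Of these miRNAs miR-137-3p had 0 reads in young and 3 in aged muscle, and miR-129-5p had 1 and 2, and neither was tested. The young libraries pooled 8549817 mapped reads and the aged ones 13470682, so reads of the 2 ages are not at one depth. The mean FPKM of miR-129-5p was 6.82 in aged and 13.0 in young muscle. These means rest on 2 aged reads and 1 young read. The FPKM of 1 read is higher in a shallow library, so they give no direction. The 5 tested neuronal miRNAs differed by -0.24 (miR-218-5p) to 0.20 (miR-124-3p), 3 of them above 0 (limma adjusted p from 0.861 to 0.990). The sum of 7 epithelial miRNAs spanned 458 to 1567 in young libraries and 1136 to 2637 in aged ones, with 1027 and 1952 in the 2 deepest. miR-203-3p held most of this sum, at 1156 ± 405 FPKM in young and 1857 ± 403 in aged muscle (SD, n = 6), a log2 difference of 0.72 (SE 0.28, limma unadjusted p = 0.0166, adjusted p = 0.215). The other tested epithelial miRNA, miR-141-3p, differed by 0.83 (limma adjusted p = 0.478). The remaining ones were not tested. Their reads in young and aged muscle were 0 and 3 for miR-200a-3p, 1 and 2 for miR-200b-3p, and 2 and 2 for miR-200c-3p. They were 3 and 3 for miR-429-3p and 1 and 4 for miR-205-5p. The mean FPKM of miR-429-3p was 8.12 in aged and 14.7 in young muscle, which on 3 reads in each age gives no direction. The part of epithelial RNA in the age difference of the cluster was not tested. The sum of 7 blood cell miRNAs spanned 17634 to 25844 in young libraries and 14962 to 35411 in aged ones, with 20655 and 23125 in the 2 deepest. In each of these 3 lists the 2 deepest libraries lay inside the range of the others of their age. The 2 endothelial strands, miR-126a-5p and miR-126a-3p, summed to 370242 FPKM in young replicate 6, inside the young range, and to 336491 in aged replicate 3, the lowest of the aged libraries, whose highest was 382329.

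miR-182-5p and miR-183-5p rose and fell together from library to library. With 1 library per animal, differences between animals and between library preparations cannot be told apart. Over the 12 libraries Pearson's r of their log2 levels was 0.92 (permutation test, 100000 resamples, p = 2e-05) and Spearman's rho 0.94 (p = 2e-05). Within young muscle r was 0.86 (n = 6, exact permutation test, p = 0.00278) and rho 0.94 (exact p = 0.0167). Within aged muscle r was 0.99 (n = 6, exact permutation test, p = 0.00139) and rho 1 (exact p = 0.00278). Young replicate 6 and aged replicate 3 were the 2 libraries farthest from the median of miR-182-5p, and without them r was 0.87 (n = 10, permutation test, p = 0.000310) and rho 0.92 (p = 0.000560). The relation therefore did not rest on the 2 deepest libraries. Both miRNAs share the scaling of each library.

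**Figure D4:**
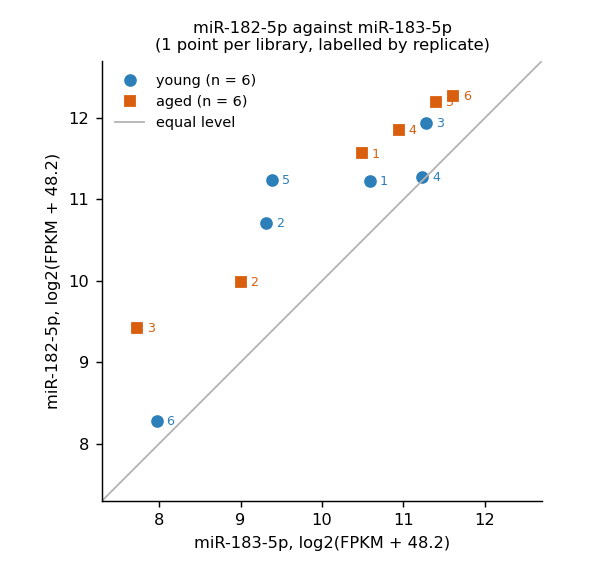
miR-182-5p against miR-183-5p, each on log2(FPKM + 48.2), 1 point per library labelled by replicate number, young as circles and aged as squares. All 12 points lie above the line of equal level, and they run together from young 6 and aged 3 at the lower left to aged 6 at the upper right.

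The balance between the 2 miRNAs, which does not depend on how a library is scaled apart from the pseudocount, varied with an SD of 0.53 over the 12 libraries, where the levels had SDs of 1.21 and 1.36. The log2 ratio of miR-182-5p to miR-183-5p ran from 0.05 through a median of 0.65 to 1.85 in young muscle, with a mean of 0.82 ± 0.68 (SD, n = 6). In aged muscle it ran from 0.65 through a median of 0.94 to 1.69, with a mean of 1.02 ± 0.36 (SD, n = 6). The ages differed by 0.20, less than the SD within either age (exact permutation test, two-sided, p = 0.537). In reads, miR-182-5p made up 64.3% of the member reads over the young libraries (exact binomial interval 58.2 to 70.2) and 70.0% over the aged ones (66.7 to 73.1). These intervals cover counting error in the pooled reads only and not the spread between libraries.

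The tested miRNA most like miR-182-5p over the 12 libraries was miR-183-5p, followed by miR-338-3p and miR-3065-5p (both r = 0.69), miR-410-3p (0.60) and miR-30a-3p (0.60). For miR-183-5p the list was miR-182-5p, miR-410-3p (0.67), miR-199b-3p (0.60), miR-338-3p and miR-3065-5p (both 0.54). These values describe 12 libraries that share their scaling and carry no test. miR-338-3p and miR-3065-5p are complementary strands of one place on chromosome 11:
miR-338-3p: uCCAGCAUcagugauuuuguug
miR-3065-5p: uCAACAAAaucacugaugcugg
They are shown because their levels were identical in all 12 libraries, so they stand for 1 pattern, not 2. miR-338-3p is known from neurons and from the glia that form myelin. Without the 2 deepest libraries r to miR-182-5p was 0.76 for miR-338-3p, 0.64 for miR-410-3p and 0.37 for miR-30a-3p. To miR-183-5p it was 0.69 for miR-410-3p, 0.48 for miR-199b-3p and 0.43 for miR-338-3p. For miR-96-5p the 5 nearest were miR-382-3p, miR-411-3p, miR-99b-3p, miR-299a-3p and miR-532-3p, with r from 0.66 to 0.85, but 6 single reads give no pattern of level.

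Other miRNAs that have been described on the FoxO axis were read alongside the cluster. Of the 12 on the list, 11 could be tested, and 1 was called higher in aged muscle, where 0.622% of all tested miRNAs were. The exception from testing was miR-370-3p, with 3 reads in young and 2 in aged muscle. The one called was miR-132-3p, described on Foxo3, at 176 ± 169 FPKM in young and 646 ± 182 in aged muscle (SD, n = 6), a log2 difference of 2.06 (SE 0.56, limma adjusted p = 0.0497). That call was lost under 19 alternatives and held under 8, with limma adjusted p from 0.0235 to 0.222. It was lost, for example, in the 10 libraries without the deepest of each age (difference 2.25, limma adjusted p = 0.0878) and by exact permutation (adjusted p = 0.110). The median difference over the 11 was 0.38. Over all tested miRNAs it was 0.068, itself above 0, so estimates above 0 were common there too. On the list 11 of 11 estimates were above 0. The count was 10 of 11 under quantile normalization, where miR-27b-3p was at -0.11. It was also 10 of 11 without young replicate 4, where miR-139-5p was at -0.0079. miR-212-3p, the partner of miR-132 on the same transcript, differed by 0.51 (limma adjusted p = 0.679). miR-155-5p, also described on Foxo3, differed by 0.71 (limma adjusted p = 0.344). Among those described on Foxo1, miR-223-3p differed by 0.67 (limma adjusted p = 0.458), miR-27a-3p by 0.26 (limma adjusted p = 0.407), miR-27b-3p by 0.21 (limma adjusted p = 0.503) and miR-139-5p by 0.15 (limma adjusted p = 0.857). miR-23a-3p, described on the ubiquitin ligases themselves, differed by 0.38 (limma adjusted p = 0.189). miR-29b-3p, described on IGF1 signalling upstream of FoxO, differed by 0.69 (limma adjusted p = 0.164), and miR-1a-3p by 0.17 (limma adjusted p = 0.651). miR-486-5p, also described on Foxo1, differed by 0.11 (limma adjusted p = 0.835). The list was chosen with earlier results of these data known, so its direction is not independent evidence.

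**Figure D5:**
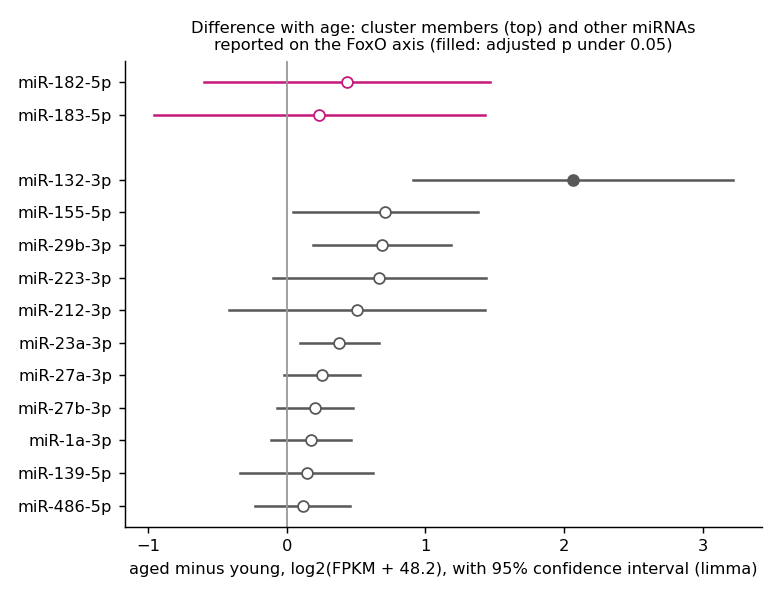
Difference between aged and young muscle on log2(FPKM + 48.2) with 95% confidence intervals from limma, for miR-182-5p and miR-183-5p (top) and the 11 tested miRNAs of the FoxO list, filled where the adjusted p was under 0.05. The intervals of both cluster miRNAs span 0 and are wider than those of abundant miRNAs such as miR-486-5p, and miR-132-3p at 2.06 is the filled point.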

How the data were processed

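Small RNA was sequenced in 12 gastrocnemius libraries, 6 young and 6 aged, one per mouse. The authors trimmed adaptors, aligned reads with BWA (default settings) to mm10 and calculated FPKM over the mature miRNAs of miRBase 20, as their methods state. The submitters' processing notes name TopHat2. The deposited values are log2 of FPKM to 2 decimals, and a miRNA with no read is written as 0. Use of strand and treatment of reads with several places are not given in the sources used here. The levels of miR-338-3p and miR-3065-5p, on opposite strands, were identical, so reads at that place were not told apart by strand. Groups and replicate numbers came from the sample titles.

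Values were returned to a linear scale with 0 left as 0, and copies of the same mature miRNA were added up. The FPKM of 1 read, found from the steps of the low values and the RefSeq mature lengths (matched for 1603 of 1900 miRNAs), gave mapped reads and read numbers. Whole reads, within 0.15, made up 99.2% of the 2987 values below 25 reads. A miRNA without a matched length was taken as 22 nucleotides long, which affects the read-based alternative and read numbers of such miRNAs. Levels were tested as log2(FPKM + 48.2), 48.2 being the median, over the 12 libraries, of each one's lowest nonzero FPKM. This scale understates changes of low miRNAs. The 482 miRNAs above 0 in at least 5 libraries entered limma 3.58.1 (R 4.3.3), with a mean-variance trend and age as the only term. Tests were two-sided, and p-values were adjusted by Benjamini-Hochberg, with calls at 0.05. The fit was tested on simulated data with less spread between libraries than miR-182-5p and miR-183-5p had, so that test does not cover these members. Levels within a library were compared by exact sign flips, adjusted over 3 pairs, and the ratio by exact permutation over 924 splits. Scripts used Python 3.11.15, pandas 2.3.3, NumPy 2.4.6, SciPy 1.17.1 and matplotlib 3.10.9. Hairpin positions and 3′UTRs came from GENCODE M21, on mm10, and mature sequences from RefSeq GRCm38.p6.

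Named were the members, their passenger strands, miRNAs sharing their seed, the 5 tested miRNAs with the highest Pearson r to each member, the FoxO list and cell type markers. The endothelial markers were matched under the table's names, miR-126a. The members, lists and tests were chosen with earlier results of these data known. Alternatives were other pseudocounts, filters and scalings, a replicate block, limma without trend, exact permutation per miRNA, zeros as values, depth as a covariate, limma voom on recovered reads and leaving out each library. Leaving out the deepest library of each age, that with a replicate block, and median-of-ratios scaling with depth as a covariate were chosen after seeing the data.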

Additional observations from a re-analysis of the deposited data

Results flagged for a closer look

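By Dixon's test at the 95% level, 2 of 8 sets of 6 values had a library far from the other 5, where chance marks about 1 in 20 groups. miR-182-5p in young replicate 6 was at 8.27 on log2(FPKM + 48.2), a value that rests on 43 reads, while the remaining young libraries lay between 10.7 and 11.9. miR-96-5p in aged replicate 4 was at 6.38, a value of 1 read, while the remaining aged libraries lay between 5.59 and 5.75. With 4 of these 6 values at the level of no read, the rate of 1 in 20 does not apply to it.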

How the results depend on the processing

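None of the 3 members was called under any alternative run. miR-182-5p was higher in aged muscle under 26 alternatives, by 0.22 to 0.99 (limma adjusted p from 0.167 to 0.929), and lower under 1, at -0.067 without young replicate 6. miR-183-5p was higher under 24, by 0.086 to 0.83 (limma adjusted p from 0.441 to 0.980), and lower under 3, at -0.16 without young replicate 6, -0.0044 without aged replicate 5 and -0.048 without aged replicate 6. With limma voom on recovered reads the differences were 0.89 and 0.43, and the reason was not tested. Leaving out each library in turn gave -0.067 to 0.79 for miR-182-5p, -0.16 to 0.73 for miR-183-5p and a limma adjusted p of 0.234 to 0.611 for miR-96-5p, which a filter on the mean level removed. The log2 ratio of miR-182-5p to miR-183-5p differed by 0.045 to 0.41 when each library was left out, and by -0.039 (exact permutation test, p = 0.905) without the deepest of each age. The order of the levels kept its direction and call in the 15 alternatives run for it. In the FoxO list, miR-139-5p was at -0.0079 without young replicate 4 and miR-27b-3p at -0.11 with quantile normalization.

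The number of miRNAs called, 14, was 6 with a pseudocount of 1 and with zeros kept as values, 7 without a filter, 8 with depth as a covariate, 8 in 10 libraries with a replicate block, and 6 to 15 when 1 library was left out, with 6 to 9 without young replicate 1 or 3 or any 1 of the aged libraries. Exact permutation per miRNA called 0, with 66 at an unadjusted p under 0.05. With the replicate block the calls numbered 14 and the difference of miR-182-5p stayed at 0.43 (limma adjusted p = 0.754). Deviations of libraries with the same number correlated from -0.094 to 0.095, so no pairing by number was seen in these levels. A check on levels that are mostly low could miss a weak pairing. A depth of 120437 to 609777 mapped reads in 6 libraries limits what can be seen of miRNAs at the level of miR-96-5p.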
